A study of Mus musculus with 6 samples.

Results

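The SOCS and STAT genes examined here are 9 listed genes of cytokine signalling, Socs1, Socs2, Socs3, Cish, Stat3, Stat4, Stat5a, Stat5b and Stat6. They were chosen by symbol in the array's annotation, and all 9 had a probe set, out of 12393 genes measured. Expression was measured on Affymetrix arrays in dendritic cells (DCs), the antigen-presenting cells that prime T cells, of mice of the inbred strain BALB/c. The cells were isolated by flow sorting as conventional DCs positive for CD11c, the integrin encoded by Itgax, either from spleen or from lymph nodes, with 3 arrays per organ numbered 1 to 3. The groups share strain, gate and RNA preparation and differ in organ, and the labels name no treatment and no age. The labels do not say whether arrays came from separate mice or pools, so the p-values reflect array-to-array spread that could be purely technical.

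Cytokine receptors without kinase activity of their own signal through Janus kinases (JAKs). The kinases phosphorylate STAT proteins, which pair, enter the nucleus and switch on target genes. STAT3 is the main STAT of IL-6 and IL-10, STAT4 of IL-12, STAT5A and STAT5B of GM-CSF and of cytokines such as IL-2 and IL-7, and STAT6 of IL-4 and IL-13. Among the targets are the genes of the SOCS proteins and of CIS (Cish), which bind receptors or kinases and shut the signal down. In DCs, GM-CSF acts through STAT5, the growth factor FLT3 ligand acts largely through STAT3, and Socs2 is a recurrent marker of mature DCs.

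Among the 9 genes, the feedback inhibitor genes Socs2 and Socs3 were higher in the arrays labelled spleen by their brightest probe sets. In the other direction 0 genes passed. The call rested on limma's test with Benjamini-Hochberg adjustment over all 12393 genes at an adjusted p of 0.05, two-sided, on log2 intensity, with each gene read by its probe set of highest mean. The other 7 genes, Socs1, Cish and the 5 STAT genes, did not pass. Another probe set of Socs3, 1416576_at, was lower in the arrays labelled spleen (-0.52) without passing, so the direction of Socs3 depends on the probe set. Socs2 passed in only 1 of 6 fits that each left out 1 array. Over all genes 3.40% passed in either direction, 2.03% being higher and 1.37% lower in the arrays labelled spleen. The median log2 difference, labelled spleen minus labelled lymph node as for every difference below, was 0.37 over the 9 genes and -0.0053 over all genes. The arrays of the groups did not overlap for 6 of the 9 genes, 5 higher and 1 lower in the arrays labelled spleen, where 24.5% of all genes did not overlap, 11.8% of all being higher and 12.7% lower.

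**Figure D1:**
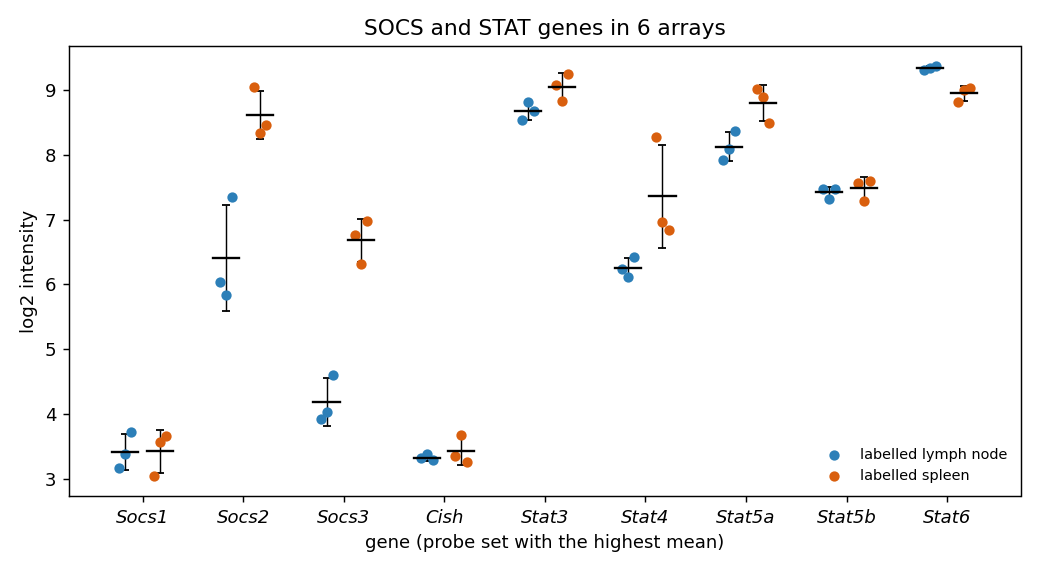
Log2 intensity (vertical axis) of the 9 genes (horizontal axis), each by its probe set of highest mean; points are single arrays, 3 labelled lymph node (blue) and 3 labelled spleen (orange), bars are means and whiskers 1 SD. Socs2 and Socs3 stand 2.21 and 2.50 higher in the arrays labelled spleen, and Socs1 and Cish lie between 3.05 and 3.72 in all 6 arrays.

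Several values of the whole arrays differed between the groups and stand beside every result below. The bacterial poly-A control transcripts, added to the RNA as a technical standard, had a mean log2 intensity over their 24 probe sets of 7.39 to 7.96 in the arrays labelled lymph node and 8.41 to 9.06 in those labelled spleen. For Gapdh, the 3′ control probe set exceeded the 5′ one by 2.60 to 2.79 log2 units in the former and 3.14 to 3.44 in the latter. This gap depends on how intact the transcript was and how fully it was copied, and the part of each was not tested. For the marker counts below, the shares over all genes were 2.03% passing as higher and 1.37% as lower in the arrays labelled spleen. Without overlap between the groups, 11.8% of all genes were higher there and 12.7% lower. Of 9 conventional DC markers 0 passed as higher and 1 as lower in the arrays labelled spleen, Itgax (adjusted p = 0.0310, limma). Their summed intensity was 20780 to 22848 in the arrays labelled lymph node against 11905 to 18121. The arrays overlapped for 0 of the 9: 8 were lower and 1 higher in the arrays labelled spleen. The higher one, Irf8 (1.67), was named after its values were seen and did not pass. Mature migratory DC markers had 5 of 13 higher and 0 lower, with sums of 5846 to 6873 against 7398 to 10180. Ccl22, Ccr7 and Fscn1, each by its brightest probe set, were among the 5. They are textbook genes of DCs that have reached lymph nodes from tissues, and their direction goes against the labels. The rest of the list was mixed: over the 13, the arrays did not overlap for 7 that were higher and 2 that were lower in the arrays labelled spleen. Those 2, Cd80 (-0.73) and Traf1 (-0.43), were named after their values were seen and did not pass. The groups are named by label throughout.

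Markers of other cells that a CD11c gate can hold differed as well. Plasmacytoid DC markers had 3 of 10 higher (Blnk, Klk1 and Ccr9) and 0 lower, with sums of 619 to 1264 in the arrays labelled lymph node and 1628 to 5376 in those labelled spleen. T cell markers had 2 of 9 higher (Cd28 and Il7r) and 0 lower, with sums of 260 to 722 against 1160 to 2678. Il7r, also a cytokine receptor gene of the pathway, was the brightest of the 9 and weighs most in these sums. The groups overlapped for 6 of the 9, among them Cd3d, Cd3e and Cd3g, and 3 were higher without overlap. Of 8 NK cell markers 0 passed, and their sums overlapped, at 410 to 1027 against 559 to 1862. Of 6 B cell markers 1 was lower, Cd22, with sums of 727 to 1194 against 384 to 705. Ighm and Cd22 were the brightest of the 6 and weigh most in these sums. The groups overlapped for the other 5 B cell markers, whose signs were mixed. Of 8 neutrophil markers 1 was lower, Camp, with sums of 205 to 769 against 87 to 163. Macrophage and monocyte markers had 0 of 11 past the threshold, with sums of 1749 to 3669 against 2735 to 3727. Immediate early genes, which respond to handling of cells, had 0 of 11 past the threshold, a median difference of -1.07 and sums of 15538 to 29916 against 9726 to 22265. In sorted bulk RNA, a change in the share of a cell type and a change in RNA per cell cannot be told apart.

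Socs3 encodes the inhibitor that blocks the IL-6 receptor chain gp130 and its kinases. By its probe set of highest mean, 1455899_x_at, it lay at 3.92, 4.04 and 4.60 log2 intensity in the arrays labelled lymph node and at 6.76, 6.32 and 6.97 in those labelled spleen. All arrays labelled spleen were above all arrays labelled lymph node, and the gap between the groups exceeded the spread within either. The means were 4.19 ± 0.36 and 6.68 ± 0.33 (SD, n = 3 each), a 5.64-fold difference (log2 2.50 ± 0.25 SE, 95% interval 1.92 to 3.07, adjusted p = 0.00550, limma). The values labelled lymph node lie close to the bottom of the scale, so the size of the fold is uncertain. The log2 difference was 1.79 when 16 was added to each value (adjusted p = 0.0186) and 1.38 for the mean of all 3 probe sets (adjusted p = 0.0253). By unadjusted p it ranked 23 among the 12393 genes. It passed whichever single array was left out, with an adjusted p between 0.00939 and 0.0433. In a fit with the poly-A control level as a covariate, added after seeing the data, the difference was 1.44 (adjusted p = 0.880). There, 0 of all genes passed in limma, and 701 had an unadjusted p under 0.05. The poly-A level did not overlap between the groups, so this fit cannot tell the organ from that level.

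The probe sets of Socs3 disagreed. The second, 1456212_x_at, gave 4.47, 3.67 and 3.94 in the arrays labelled lymph node and 6.18, 5.38 and 6.97 in those labelled spleen, again without overlap. Its difference was 2.15 ± 0.40 (SE), past the threshold in the fit over all 22626 probe sets other than controls (adjusted p = 0.0390, limma; 2.78% of probe sets passed). The third, 1416576_at, gave 4.10, 3.78 and 3.96 against 3.26, 3.41 and 3.62. Here all arrays labelled spleen were below all others, by 0.52 ± 0.17 (SE), and the difference did not pass (adjusted p = 0.169, limma). In intensity, 1416576_at stayed between 9.6 and 17.2 on all 6 arrays, whereas 1455899_x_at reached 79.8 to 125.2 in the arrays labelled spleen. The difference between the groups was 3.01 log2 units larger by 1455899_x_at than by 1416576_at (exact permutation test, two-sided, p = 0.1, the smallest that 3 against 3 arrays allow). This disagreement was known from these data before the test, so the p adds no support to it. The probe sets of Stat5a (0.43 log2 units) and of Stat5b (0.25) reached the same p in that test. The suffix _x_at marks probe sets with probes that can also match other transcripts, and both probe sets that gave the higher values carry it. The direction of Socs3 therefore depends on the probe set, and the probes' own sequences were not used here.

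**Figure D2:**
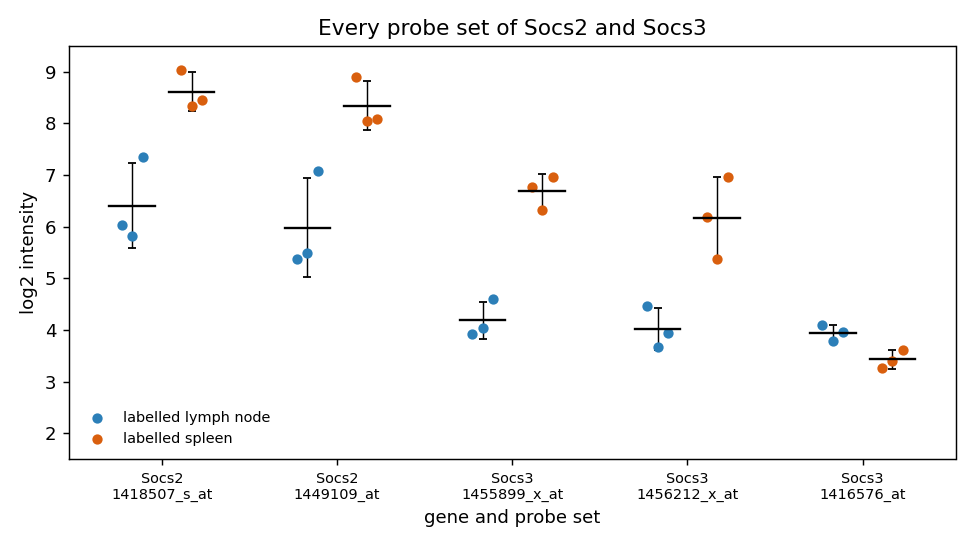
Log2 intensity (vertical axis) of the 2 probe sets of Socs2 and the 3 of Socs3 (horizontal axis) in single arrays labelled lymph node (blue, 3) and spleen (orange, 3), with means and 1 SD. Both Socs2 probe sets and both _x_at probe sets of Socs3 are higher in the arrays labelled spleen, and 1416576_at of Socs3 is slightly lower there.

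Socs3, Socs1 and Cish are all known to be switched on by STAT proteins, so their promoters are shown side by side. The 250 bases before the annotated start were taken from RefSeq (GRCm38.p6), 5′ to 3′ on the gene's strand, and searched for TTCNNNGAA, the general STAT site, and TTCNNNNGAA, the wider spacing that STAT6 prefers. Each motif reads the same on both strands, and a match is in capitals. Entries existed for 8 of the 9 genes, all but Socs2.
Socs3, chr11:117969367-117969616, minus strand: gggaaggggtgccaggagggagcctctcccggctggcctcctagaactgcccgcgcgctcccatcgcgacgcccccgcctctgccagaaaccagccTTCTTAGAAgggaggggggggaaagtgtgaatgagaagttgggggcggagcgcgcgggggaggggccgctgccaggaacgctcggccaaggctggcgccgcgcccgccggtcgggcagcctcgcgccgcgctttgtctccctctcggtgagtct
Socs1, chr16:10785537-10785786, minus strand: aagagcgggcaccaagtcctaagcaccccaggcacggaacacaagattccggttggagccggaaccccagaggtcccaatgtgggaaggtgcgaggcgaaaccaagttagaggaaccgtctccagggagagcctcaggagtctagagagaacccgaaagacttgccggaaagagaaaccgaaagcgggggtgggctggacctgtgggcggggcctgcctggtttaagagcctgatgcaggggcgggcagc
Cish, chr9:107296409-107296658, plus strand: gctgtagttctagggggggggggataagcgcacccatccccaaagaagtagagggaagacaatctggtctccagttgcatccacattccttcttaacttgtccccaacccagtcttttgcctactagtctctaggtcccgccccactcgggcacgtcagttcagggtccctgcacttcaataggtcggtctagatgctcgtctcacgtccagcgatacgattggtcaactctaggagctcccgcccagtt
The Socs3 window held 1 match to the first motif, TTCTTAGAA, whose first base lay 154 bases before the start. The other windows of the 8 genes, 11 in all with alternative starts, held no match to either motif. Among all 32851 windows of the same length, 7.02% held the first motif and 5.85% the second. A match in these letters is a description and shows no binding. The lack of a match in 250 bases does not show that a gene lacks STAT sites. Any link between these sites and the levels measured here was not tested.

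Socs2, the inhibitor of growth hormone and other STAT5 signals, was the other gene past the threshold. Its probe set of highest mean, 1418507_s_at, lay at 6.04, 5.83 and 7.35 in the arrays labelled lymph node and at 9.04, 8.34 and 8.46 in those labelled spleen. Lymph node array 3 stood more than 1 log2 unit above the other arrays of its group but below every array labelled spleen. The means were 6.40 ± 0.82 and 8.61 ± 0.38 (SD, n = 3 each), a 4.62-fold difference (log2 2.21 ± 0.40 SE, 95% interval 1.28 to 3.14, adjusted p = 0.0331, limma). The second probe set, 1449109_at, which has no suffix, gave 5.38, 5.49 and 7.08 against 8.89, 8.05 and 8.08. It had the same direction and passed (2.36 ± 0.47 SE, adjusted p = 0.0461 over probe sets, limma).

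The call on Socs2 was narrow. With 1 array left out it passed in 1 of 6 fits, the one without lymph node array 3 (2.68, adjusted p = 0.0126). Leaving out lymph node array 1 (adjusted p = 0.142) or 2 (0.130) ended the call, as did leaving out spleen array 1 (0.101), 2 (0.0535) or 3 (0.0519), while the difference kept its sign and stayed between 1.92 and 2.35. Adding 16 to each value before taking log2 ended it too (adjusted p = 0.0591). In the fit with the poly-A covariate the difference was 1.02 (adjusted p = 0.917).

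Socs1, the inhibitor of interferon signalling, had a single probe set and lay at 3.17, 3.38 and 3.72 in the arrays labelled lymph node and 3.05, 3.57 and 3.67 in those labelled spleen. The groups overlapped, and the difference was 0.0073 ± 0.23 (SE, 95% interval -0.52 to 0.54, adjusted p = 0.992, limma). Cish, the textbook feedback gene of STAT5, lay at 3.32, 3.38 and 3.29 against 3.35, 3.68 and 3.26. These groups overlapped too, with a difference of 0.10 ± 0.17 (SE, 95% interval -0.29 to 0.49, adjusted p = 0.816, limma). Both probe sets were dim, at 3.05 to 3.72 in log2 (8.3 to 13.2 intensity units), while both ends of the Trp control transcript read 1.63 to 2.14 in log2. At such values a difference of moderate size may not be measurable, and no detection calls were used.

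Stat5a, a mediator of GM-CSF signals, lay at 7.92, 8.08 and 8.37 in the arrays labelled lymph node and 9.01, 8.89 and 8.48 in those labelled spleen. The groups did not overlap, though lymph node array 3 and spleen array 3 were close to each other. The difference of 0.67 ± 0.21 (SE, 95% interval 0.19 to 1.15) did not pass (adjusted p = 0.126, limma). Its second probe set, 1450259_a_at, gave a difference of 0.24 with overlapping groups (adjusted p = 0.545 over probe sets, limma). The near-identical gene Stat5b lay at 7.47, 7.32 and 7.47 against 7.57, 7.28 and 7.59, with no separation (0.059 ± 0.16 SE, 95% interval -0.32 to 0.44, adjusted p = 0.894, limma). Its second probe set, 1422102_a_at, had the opposite sign (-0.19, adjusted p = 0.592). As the copies are alike in sequence, signal shared between their probe sets was not tested.

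Stat4, the transducer of IL-12 signals, lay at 6.24, 6.11 and 6.42 in the arrays labelled lymph node and 8.27, 6.96 and 6.84 in those labelled spleen. Spleen array 1 stood more than 1 log2 unit above every other array. The difference of 1.10 ± 0.36 (SE, 95% interval 0.25 to 1.94) did not pass (adjusted p = 0.154, limma) and was 0.64 without spleen array 1. T and NK cells also express Stat4, and spleen array 1 had the highest summed markers of both, 2678 for T cells and 1862 for NK cells. In the other arrays these sums were 260 to 2499 and 410 to 1027. The T cell sum of 2499 was that of spleen array 3, whose Stat4 value, 6.84, was the lowest of its group. The NK cell sum of 1027 was that of lymph node array 3, with Stat4 at 6.42. The part of T and NK cells in the Stat4 value was not tested.

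Stat3, the transducer of IL-6 and IL-10, lay at 8.53, 8.81 and 8.68 in the arrays labelled lymph node and 9.07, 8.83 and 9.24 in those labelled spleen. The groups touched without overlapping, and the difference of 0.37 ± 0.17 (SE, 95% interval -0.031 to 0.78) did not pass (adjusted p = 0.301, limma). The other probe sets, 1460700_at and 1424272_at, differed by 0.32 and 0.12 with overlapping groups. Stat6, the transducer of IL-4 and IL-13, was the one gene of the 9 whose arrays labelled spleen all lay below the rest. It read 9.30, 9.33 and 9.36 against 8.81, 8.99 and 9.03, a tight pair of groups. The difference of -0.39 ± 0.15 (SE, 95% interval -0.73 to -0.041) did not pass (adjusted p = 0.212, limma), and its dimmer probe set, 1421708_a_at, differed by -0.28 with overlapping groups.

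**Figure D3:**
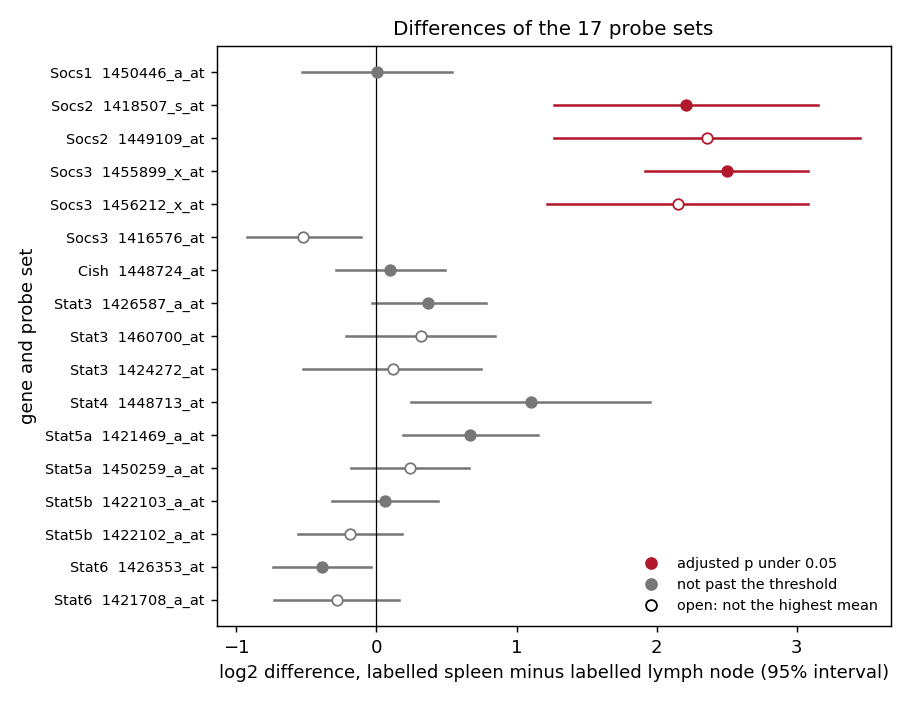
Log2 difference, labelled spleen minus labelled lymph node (horizontal axis), with its 95% interval for each of the 17 probe sets of the 9 genes (vertical axis), from limma over all probe sets with 3 arrays per group; red passed an adjusted p of 0.05 and open points are probe sets other than the one of highest mean. The 4 that passed belong to Socs2 and Socs3, and 1416576_at of Socs3 lies at -0.52.

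The genes whose profile over the 6 arrays was most like that of Socs3 were found among 6197 genes with a mean at or above the median gene. Likeness was the root mean square difference of log2 values centred on each gene's mean. Cd200, an inhibitory surface glycoprotein of mature DCs, was closest at 0.191, followed by Sec24d, a coat protein of vesicles leaving the endoplasmic reticulum, at 0.234 and the G protein subunit gene Gnb4 at 0.274. For Socs2 they were Anxa3, an annexin, at 0.117, the enolase gene Eno2 at 0.216 and Pbld2 at 0.253. As with Socs2, lymph node array 3 stood more than 1 log2 unit above the others of its group for all 3, at 6.84, 7.19 and 6.29. A choice by likeness to Socs2 over the same arrays favours such genes, so this is no separate observation. The filter used the mean over all 6 arrays, so a gene could pass it through the arrays labelled spleen alone. Cd200 lay at 4.29, 4.10 and 4.99 in the arrays labelled lymph node, under the median gene at 5.46. It is also 1 of the 5 mature migratory DC markers that passed, and its likeness to Socs3 includes the difference between the groups. With 6 arrays from 2 groups, such likeness describes these arrays only.

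Among 105 other measured genes of the pathway, 9 rose and 3 fell in the arrays labelled spleen, with a median difference of 0.086. Over all genes 2.03% were higher and 1.37% lower, the shares to set beside each list count below. The lists were chosen with earlier results of these data known, so their counts are descriptions. Of the JAK kinases 0 of 4 passed; Jak2 differed by 0.25 and Jak1 by 0.086. Of 5 other STAT and SOCS genes, 0 passed; Stat2 differed by -0.29 and Socs4 by 0.10. Of 10 PIAS proteins and phosphatases, which also damp the signal, 0 passed; the phosphatase genes Ptprc and Ptpn6 differed by -0.43 and -0.98.

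Receptors upstream of STAT3 and STAT4, those of the gp130, IL-10 and IL-12 families, had 2 of 12 members fall in the arrays labelled spleen and 0 rise, with a median of -0.17. Il10ra, the ligand-binding chain of the IL-10 receptor, lay at 8.49, 8.64 and 8.30 in the arrays labelled lymph node and 6.73, 7.06 and 6.67 in those labelled spleen. The groups were far apart, with a difference of -1.66 ± 0.18 (SE, adjusted p = 0.00653, limma). Il6ra, the IL-6 receptor chain, lay at 9.10, 9.16 and 9.22 against 8.08, 8.35 and 8.27, also without overlap (-0.93 ± 0.15 SE, adjusted p = 0.0264, limma). The shared chain gene Il6st, which encodes gp130, differed by -0.51 and Il10rb by -0.14, and neither passed. Lifr, the receptor chain of leukaemia inhibitory factor, was named after its values were seen as the member with the highest difference, 2.00 ± 0.68 (SE), with overlapping groups, and did not pass (adjusted p = 0.162, limma).

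Receptors that signal through STAT5 or STAT6 had 3 of 17 higher and 0 lower, with a median of 0.22. This list also holds Flt3 (-0.54, not past the threshold), whose ligand acts in DCs largely through STAT3. Il2ra, the high-affinity IL-2 receptor chain, lay at 2.35, 2.77 and 2.89 in the arrays labelled lymph node and 6.87, 5.68 and 5.87 in those labelled spleen (3.47 ± 0.32 SE, adjusted p = 0.00529, limma). Il15ra, which presents IL-15 to neighbouring cells, differed by 1.99 (adjusted p = 0.0127) and Il7r, the IL-7 receptor chain and also a T cell marker, by 2.93 (adjusted p = 0.0232). Values of Il2ra under 4 are near the bottom of the scale, so the size of its difference is uncertain. Csf2rb, the shared chain of the GM-CSF receptor, differed by 0.74 (adjusted p = 0.0847) and Csf2rb2 by 1.83 (adjusted p = 0.0603), and neither passed. Of 4 interferon receptor genes 0 passed; Ifnar2 differed by 0.24 and Ifngr1 by -0.89.

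Of 21 cytokine ligand genes 2 were higher, Il15 (2.53 ± 0.49 SE, adjusted p = 0.0378, limma) and Il2 (1.62 ± 0.26 SE, adjusted p = 0.0234), and 0 lower. Both had values under 4 in all arrays labelled lymph node, close to the bottom of the scale. Ebi3 and Il12b, the brightest ligand genes that did not pass, differed by -0.14 and 0.78.

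Textbook target genes did not move one way. Of 14 STAT6 targets 4 were higher and 0 lower, namely the chemokine genes Ccl22 (4.97) and Ccl17 (0.94), the E-cadherin gene Cdh1 (3.75) and the lectin gene Clec10a (2.66). Cdh1 lay under 4 in all arrays labelled lymph node, so the size of its difference is uncertain. Ccl22 and Ccl17 are also mature DC markers, and these changes were known from earlier work on these arrays when the list was drawn up. Il4ra, itself a STAT6 target, differed by 0.0073 and Pdcd1lg2 by -0.44, and neither passed. Of 14 STAT3 targets 1 was lower, the cyclin D1 gene Ccnd1 (-1.02, adjusted p = 0.0270, limma), and 0 higher, with a median of -0.22; the survival gene Mcl1 differed by -0.0016 and the kinase gene Pim1 by -0.17. Of 8 STAT5 targets 1 was higher, Il2ra, and 0 lower; Ccnd2 differed by 0.12.

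**Figure D4:**
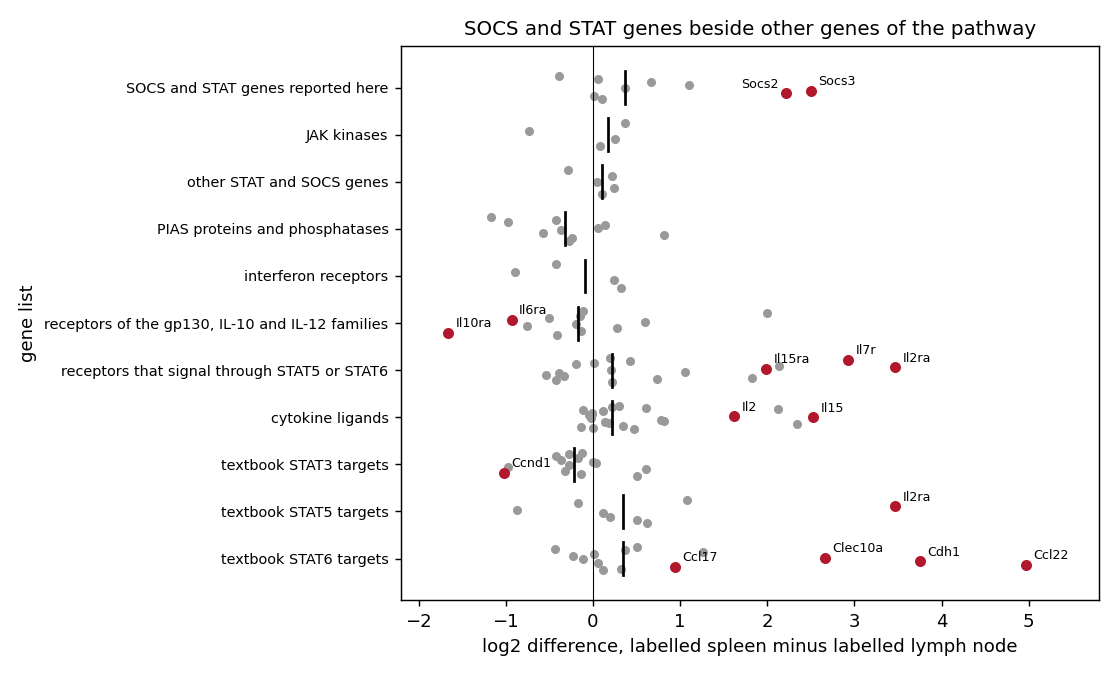
Log2 difference, labelled spleen minus labelled lymph node (horizontal axis), for the measured genes of each list (vertical axis, points spread within a row for legibility); red and named genes passed limma over all genes at an adjusted p of 0.05, and black bars are list medians. Passing genes are higher among STAT5 or STAT6 receptors, ligands and STAT6 targets, and lower among IL-6 and IL-10 receptors and in Ccnd1; Il2ra stands in 2 lists.

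The count of pathway genes past the threshold moved when single arrays were left out. It was 12 with all arrays, 4 when either lymph node array 1 or lymph node array 2 was omitted, and 6 when spleen array 1 was. Poly-A control levels and summed plasmacytoid DC and T cell markers were higher in the same arrays as the genes that rose. Il7r counts both as a T cell marker and as a gene that rose. In the fit with the poly-A covariate 0 of the pathway genes passed. As the poly-A level separated the groups, that fit cannot tell it from the organ. The part of these levels in the results was not tested.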

How the data were processed

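The values deposited by the authors are intensity summaries of 22690 probe sets on 6 arrays, on a linear scale, with array medians of 39.4 to 41.3. RMA and limma are named in the submitters' processing notes; versions, any floor and any later scaling are not given in the sources used here. Per the labels' protocols, 2 ng of total RNA was amplified. The number of arrays limits precision.

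Intensity was transformed to log2. Of all probe sets 64 were controls; of the others 20380 had 1 gene symbol, 691 had several and 1555 none; symbols were checked through RefSeq (GRCm38.p6). Each of 12393 genes was read by the probe set whose mean over the 6 arrays was highest, with no filter on level. Groups came from the sample titles and were compared in R 4.3.3 with limma 3.58.1 (lmFit, eBayes), checked on simulated data. Folds are ratios of geometric means, and intervals are unadjusted 95% intervals of the fit. Intensity sums of markers are on the linear scale.

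All members were named, with every probe set, as were passing genes of each pathway list, its 2 brightest others, the 3 most similar profiles and up to 3 passing genes of each marker list. Members and lists were chosen with earlier results of these data known. One pathway list fixed at the start is not reported here.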

Additional observations from a re-analysis of the deposited data

How the results depend on the processing

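Socs3 kept its direction in every alternative that kept its brightest probe set; without probe sets suffixed _s_at, _x_at or _a_at it was -0.52, the value of 1416576_at alone. The members past the threshold numbered 2, and 1 with log2 of the value plus 16, with the filter at the median level (which leaves out Socs1, Socs3 and Cish), without suffixed probe sets (which leaves Socs1, Stat5a and Stat5b with none) or at an adjusted p of 0.01, 0 with the poly-A covariate, and 1 to 2 with 1 array left out. Pathway genes numbered 12, against 4 at 0.01, 0 with the poly-A covariate, 19 without both arrays numbered 3 and 4 to 15 with 1 array left out. All genes numbered 421, against 764 with array weights, 63 at 0.01, 0 with the poly-A covariate and 47 to 475 with 1 array left out. The covariate and the fit without both arrays numbered 3 were chosen after seeing the data, and the cause of these shifts was not tested. Apart from Socs3, signs turned only for differences that did not pass: Socs1 (-0.036 after a second quantile normalization, -0.19 with the poly-A covariate, -0.12 to 0.20 with 1 array left out), Cish (-0.024 to 0.18 with 1 array left out), Stat3 (-0.13 with the covariate) and Stat5b (-0.066 as the mean of its probe sets, -0.19 by 1422102_a_at, -0.23 with the covariate). Whether the replicate numbers pair the arrays cannot be settled with 3 arrays per group. Same-numbered arrays' deviations correlated at 0.022, 0.24 and 0.16. The spleen array closest to a lymph node array had the same number for numbers 2 and 3 but not for 1. With the number as a replicate block 2 members, 14 pathway genes and 519 genes passed. Dim values limit Socs1, Cish and 1416576_at of Socs3, and in the arrays labelled lymph node the other probe sets of Socs3 too.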
